A study of Mus musculus with 2 samples.

Results

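The insulin-like growth factor (IGF) axis genes Igf1, Igf1r, Igf2r, Igfbp2, Igfbp3, Igfbp4, Igfbp5, Igfbp6 and Igfbp7 were measured in mouse ureters that lack Rbpj in the Tbx18 lineage and in control ureters. The list holds 1 ligand, 2 receptors and 6 binding proteins. It was set by gene name, with earlier results of these data known. All 9 genes were on the array, on 15 of its 39429 probes, and all 9 passed the filter on dim probes, among 21143 genes tested. The 15 probes were well above background on every spot in all 4 RNAs.

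The Rbpj-cKO ureters had the genotype Tbx18(cre/+);Rbpj(fx/fx) and the control ureters Tbx18(+/+);Rbpj(fx/n.d.), where n.d. stands for an allele that was not determined. All came from NMRI mice at postnatal day 4. Cre is carried by 1 Tbx18 allele, so the groups also differ in a Tbx18 allele, and it acts in the cells that express Tbx18 and their descendants, not in the whole ureter. Each of 2 two-colour Agilent arrays held 1 Rbpj-cKO and 1 control RNA, a pair labelled female on array 1 and a pair labelled male on array 2, with the dyes exchanged. Labelled sex, dye orientation and replicate therefore changed together and cannot be told apart. Whether an RNA came from 1 animal or from several is unknown here, so p-values speak only for these 2 pairs. They rest on the spread between the pairs and on a prior for the variance taken across all genes.

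IGF ligands act through the receptor tyrosine kinase Igf1r, which signals through insulin receptor substrates, PI3 kinase and Akt to promote growth and survival. Igf2r, the mannose-6-phosphate receptor, takes up the ligand Igf2 and carries it to the lysosome. The secreted binding proteins hold IGFs in the matrix and circulation, and proteases such as Pappa release them by cutting the binding protein. In organs of the urinary tract the ligands and binding proteins are made largely by mesenchyme, smooth muscle and vessels. Rbpj binds DNA and carries the signal of activated Notch receptors to target genes.

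The targeted gene Rbpj had a log2 ratio of Rbpj-cKO over control of -0.92 on array 1 and -1.10 on array 2 (limma adjusted p = 0.0873), from a probe not known to lie in the deleted part. Tbx18 itself, of which the Rbpj-cKO animals carry a Cre allele, had 0.16 and 0.0055 (limma adjusted p = 0.742). The RNAs stood apart in other ways that touch what follows. On array 1 the Rbpj-cKO RNA, labelled female, had Y-linked Ddx3y at a normalized log2 level of 11.31, against 7.08 in its control, and Y-linked Eif2s3y at 11.97, against 7.70. This goes against the label, and on array 1 these transcripts differ with genotype, so that sex and genotype cannot be told apart there. The Rbpj-cKO and control RNAs of array 2, labelled male, were higher, with Ddx3y at 12.92 and 13.46 and Eif2s3y at 14.06 and 14.25. Why the Rbpj-cKO RNA of array 1 lay between these and its control was not tested. A summed log2 level is, throughout, the log2 of the summed intensities of a list's markers, so its brightest probes weigh most. On array 2 the summed log2 level of 10 hepatocyte markers was 13.60 in the Rbpj-cKO RNA and 15.95 in the control RNA, against 13.69 and 13.18 in the Rbpj-cKO and control RNAs of array 1. The summed level of 10 adipocyte markers was 17.09 and 17.22 in the Rbpj-cKO RNAs, against 19.56 and 18.18 in the control RNAs. Smooth muscle, fibroblast and urothelium markers were all measured, with 8 of 8, 8 of 8 and 10 of 10 kept. In whole ureters, fewer cells of a type and less RNA per cell cannot be told apart. Because each array has such an RNA, the ratios of the 9 genes are given for each array.

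Probe sequences of Igf1 are shown because 5 probes report this gene and did not give the same ratio. The first 30 of the 60 bases of each are shown, in the order of their mm9 start on chromosome 10, with capitals for the bases that 2 overlapping probes share within the letters shown.
Igf1 probe at chr10:87378456-87378515: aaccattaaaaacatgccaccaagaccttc
Igf1 probe at chr10:87393561-87393620: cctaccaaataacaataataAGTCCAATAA
Igf1 probe at chr10:87393581-87393640: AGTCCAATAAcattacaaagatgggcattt
Igf1 probe at chr10:87395924-87395983: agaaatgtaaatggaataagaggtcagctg
Igf1 probe at chr10:87399581-87399640: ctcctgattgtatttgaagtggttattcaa
The overlapping probes start 20 bases apart and have 40 bases in common. The sequences and coordinates are those of the array files. No annotation of this build was used, so the exon or UTR of a probe is not stated.

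None of the 9 genes passed, for Rbpj-cKO against control ureters, the adjusted threshold of 0.05 in limma (0 of 9, smallest adjusted p 0.354), as was the case for all but 0.00473% of the genes tested. At an unadjusted p under 0.05, 1 of the 9 was lower and 0 were higher, where 7.02% of all genes were lower and 6.98% higher. No member was at least 1.5-fold higher (0.402% of all genes) or at least 1.5-fold lower (0.795%) on both arrays. The mean log2 ratios of the members lay between -0.27 for Igfbp5 and 0.20 for Igfbp2. The 95% intervals of all 9 lay inside 1.5-fold in either direction, a log2 size of 0.585, with -0.54 as their lowest and 0.40 as their highest bound. These intervals rest on 2 arrays and on a prior for the variance taken across all genes, and they bound the size of a difference without showing that there was none.

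**Figure D1:**
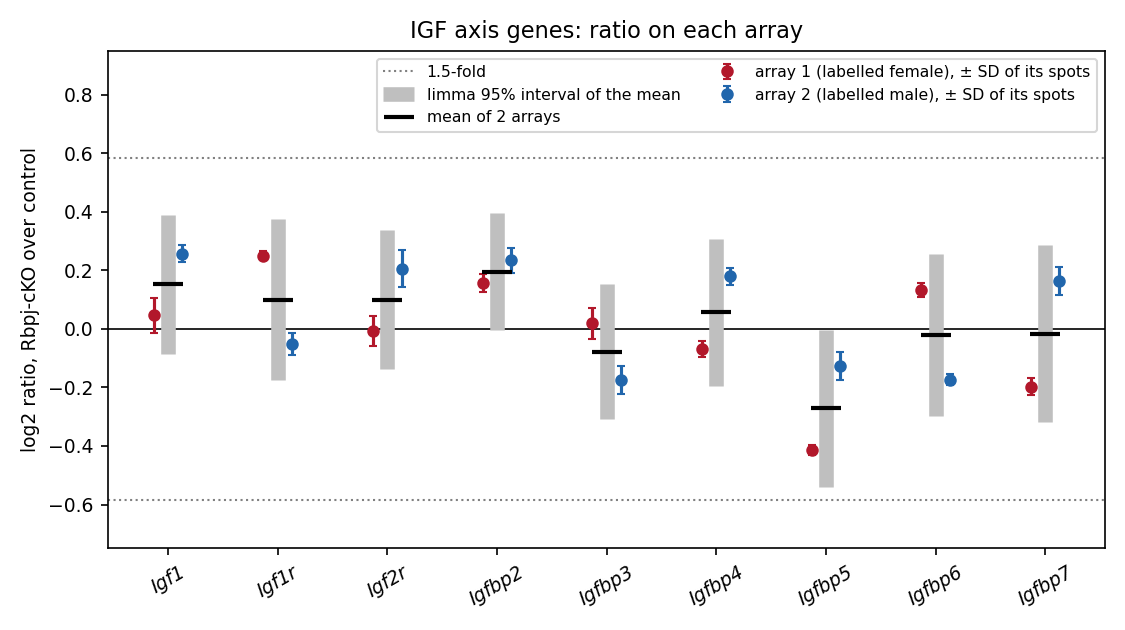
Log2 ratios of Rbpj-cKO over control (vertical axis) of the 9 genes on array 1 and array 2, with bars for the SD of a probe's spots, black ticks for the mean of the 2 arrays and grey bars for the limma 95% interval. Both points lie below 0 for Igfbp5 and above 0 for Igf1 and Igfbp2, 6 genes have points on both sides of 0, and no point or interval reaches the dotted 1.5-fold lines.

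Igf1, the ligand through which growth hormone and local signals drive tissue growth, was read by its brightest probe as slightly higher in the Rbpj-cKO RNA of both pairs. Its normalized log2 level was 14.53 and 14.45 in the Rbpj-cKO RNAs of arrays 1 and 2, against 14.48 and 14.19 in the control RNAs. The ratio of 0.046 for array 1 and 0.26 for array 2 averaged 0.15 ± 0.15 (SD, n = 2; limma adjusted p = 0.534). The Rbpj-cKO level of array 2 lay below the control level of array 1, so the groups overlap. On array 1 the ratio was within the SD of 0.060 between the spots of the probe.

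The other Igf1 probes did not repeat this ratio. The 2 overlapping probes, 15.1 kilobases along from the first, gave -0.27 and -0.26 on array 1 and 0.054 and 0.041 on array 2. The first probe gave -0.010 and 0.0067, and the probe between the overlapping pair and the brightest gave 0.084 and 0.085. Spots of 1 probe had SDs of only 0.016 to 0.060, less than the gap of the overlapping pair to the others on array 1. The means over the 2 arrays ran from -0.11 to 0.15, and the mean of all Igf1 probes was 0.0041 (limma adjusted p = 0.989). Igf1 as a whole thus has no settled direction.

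**Figure D2:**
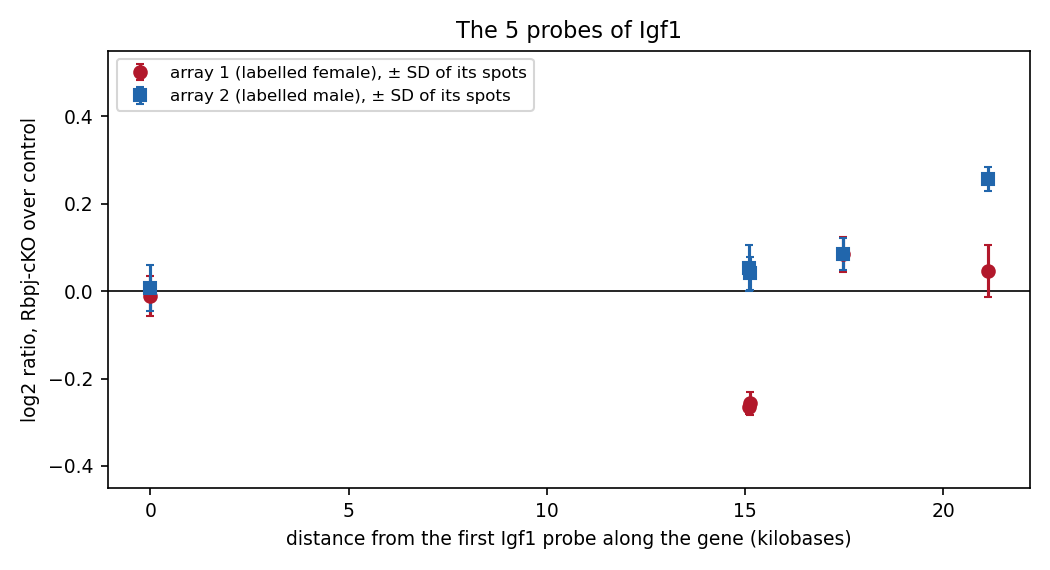
Log2 ratios of Rbpj-cKO over control of the 5 Igf1 probes on each array, placed by their distance in kilobases from the first probe, with bars for the SD of a probe's spots. On array 1 the overlapping pair at 15.1 kilobases sits at -0.27 and -0.26, below the other probes, and the last probe, at 21.12 kilobases, has the highest value on array 2 (0.26).

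The 250 bases before the RefSeq start of each gene (GRCm38.p6) were searched for TGGGAA, the core of sites bound by Rbpj, on both strands. Igf1 was the only member whose window held these letters, 1 match starting 91 bases before the start, in 1 of 10 windows of the 9 genes, against 21.6% of 32817 windows of the same length. The letters are shown in capitals in the Igf1 window, and the Igfbp5 window, of the member with the lowest ratio, is shown beside it. A match describes the letters and not binding.
Igf1, chr10:87860861-87861110, plus strand: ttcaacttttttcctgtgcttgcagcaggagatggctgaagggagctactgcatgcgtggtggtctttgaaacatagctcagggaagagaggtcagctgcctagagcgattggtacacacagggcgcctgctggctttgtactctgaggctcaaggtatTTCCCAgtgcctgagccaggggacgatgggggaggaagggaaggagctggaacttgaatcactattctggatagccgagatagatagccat
Igfbp5, chr1:72874866-72875115, minus strand: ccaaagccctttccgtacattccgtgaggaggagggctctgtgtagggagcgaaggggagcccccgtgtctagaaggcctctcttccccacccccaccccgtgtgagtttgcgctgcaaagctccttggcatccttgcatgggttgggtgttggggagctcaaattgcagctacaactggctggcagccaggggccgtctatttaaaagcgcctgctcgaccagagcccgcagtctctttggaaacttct

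Neither receptor had the same sign in both pairs. Igf1r, the signalling receptor, was read by a probe on chromosome 7 at 75378461-75378520 (mm9), and its log2 level was 14.65 and 14.55 in the Rbpj-cKO RNAs, against 14.40 and 14.60 in the control RNAs. Its ratio, 0.25 for array 1 and -0.052 for array 2, averaged 0.099 ± 0.21 (SD, n = 2; limma adjusted p = 0.751). The array 1 pair was thus apart by more than the spots' SD of 0.015, while the groups overlapped across the pairs. Igf2r, the clearance receptor, had log2 levels of 15.47 and 15.69 in the Rbpj-cKO RNAs, against 15.48 and 15.49 in the control RNAs. Its ratio was -0.0066 on array 1, inside the spots' SD of 0.052, and 0.21 on array 2. The mean was 0.10 ± 0.15 (limma adjusted p = 0.699). For the Igf2r probe the files list a span of 11 bases on chromosome 17 (12875253-12875263), shorter than its 60 bases.

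Among the binding proteins, Igfbp2 and Igfbp5 were those with the same sign in both pairs, and their signs were opposite. The genes are neighbours on chromosome 1, where 5956 bases lie between their nearest probes. Igfbp2, a binding protein of fetal tissues and fluids, had log2 levels of 13.35 and 13.58 in the Rbpj-cKO RNAs, against 13.20 and 13.34 in the control RNAs. Its ratio was 0.16 on array 1 and 0.23 on array 2, each larger than the spots' SD of 0.029 and 0.042. The mean was 0.20 ± 0.055 (SD, n = 2; limma adjusted p = 0.364), a fold of 1.15 with a 95% interval of 0.997 to 1.32. Both Rbpj-cKO levels were above both control levels, but the Rbpj-cKO level of array 1 and the control level of array 2 almost met. The share of all genes so separated was not counted. A second probe 76 bases away gave 0.14 and 0.31, so both Igfbp2 probes were higher on both arrays.

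Igfbp5, a matrix-bound binding protein made by mesenchyme and smooth muscle, was the member with the lowest ratio. Its log2 level was 15.49 and 15.67 in the Rbpj-cKO RNAs, against 15.90 and 15.80 in the control RNAs. Every Rbpj-cKO level was below every control level, but the share of all genes so separated was not counted. The ratio was -0.41 on array 1 and -0.13 on array 2, beyond the spots' SD of 0.017 and 0.047. The mean was -0.27 ± 0.20 (SD, n = 2), a fold of 0.829 with a 95% interval of 0.689 to 0.999. The member with an unadjusted p under 0.05 was Igfbp5, whose adjusted p in limma was 0.354. In size its mean was above that of 87.7% of the genes tested, the highest such share among the 9. Its only probe lies at 72904829-72904888 (mm9).

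**Figure D3:**
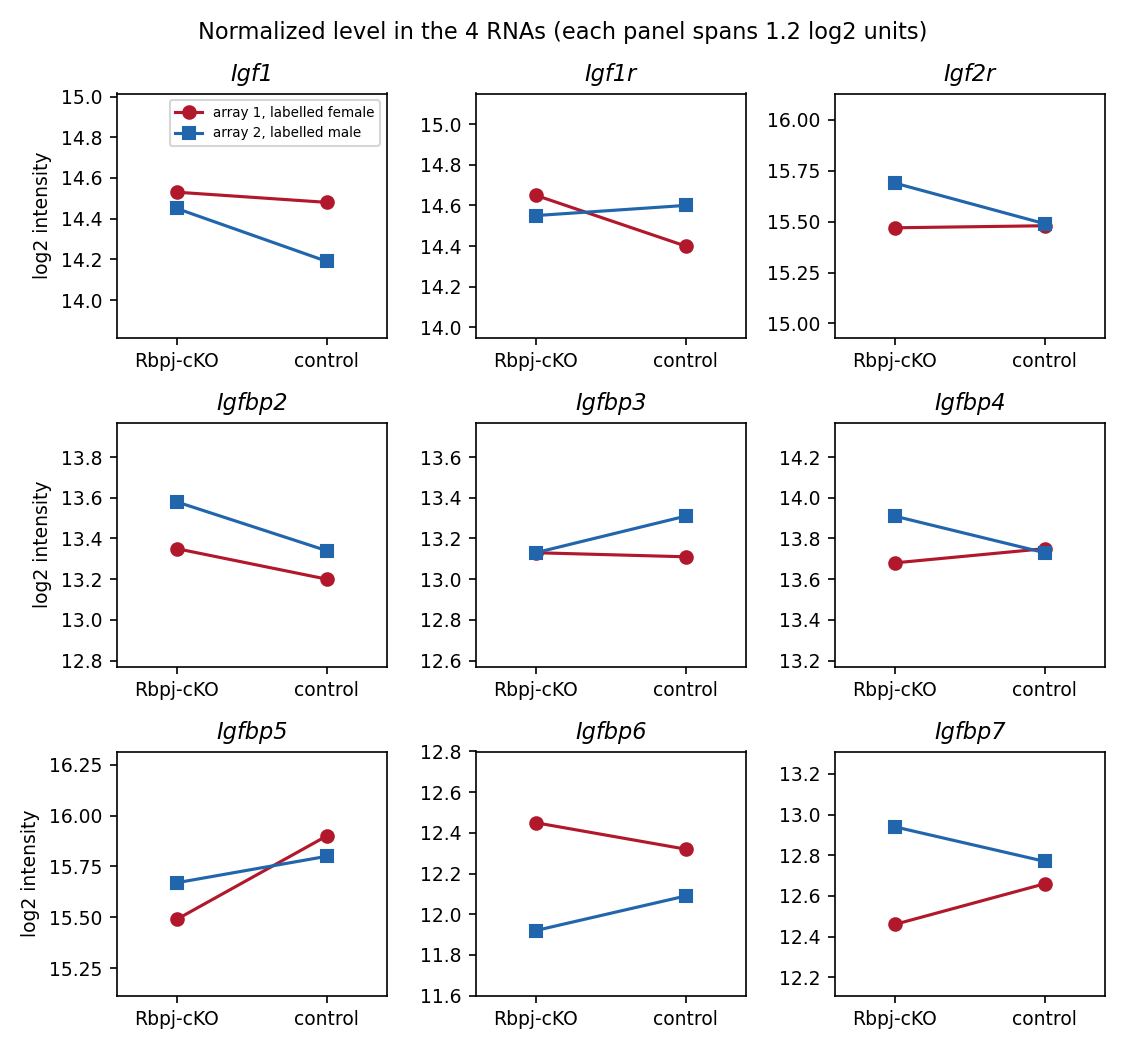
Normalized log2 intensity of the probe that stands for each gene in the Rbpj-cKO RNA (left) and the control RNA (right) of each pair, joined by a line. Both lines slope up toward the control for Igfbp5 and down for Igf1 and Igfbp2, and the lines of the other 6 genes slope opposite ways.

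The other 4 binding proteins had opposite signs in the pairs. Igfbp3, the main carrier of IGFs in adult serum, had log2 levels of 13.13 and 13.13 in the Rbpj-cKO RNAs, against 13.11 and 13.31 in the control RNAs. The ratio was 0.019 on array 1, inside the spots' SD of 0.053, and -0.18 on array 2, and averaged -0.078 ± 0.14 (limma adjusted p = 0.772). A second probe gave 0.050 and -0.20, so both Igfbp3 probes had the larger size on array 2, the pair labelled male.

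Igfbp4, which inhibits IGF action and is cut by Pappa, had log2 levels of 13.68 and 13.91 in the Rbpj-cKO RNAs, against 13.75 and 13.73 in the control RNAs. Its ratio was -0.067 on array 1 and 0.18 on array 2 (mean 0.056 ± 0.17, limma adjusted p = 0.855). The control levels lay between the Rbpj-cKO levels. Igfbp6, a binding protein with a preference for Igf2, had log2 levels of 12.45 and 11.92 in the Rbpj-cKO RNAs, against 12.32 and 12.09 in the control RNAs. Its ratio was 0.13 on array 1 and -0.17 on array 2 (mean -0.021 ± 0.22, limma adjusted p = 0.957). Here too the control levels lay between the Rbpj-cKO levels, and the pairs differed more than the genotypes.

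Igfbp7, a related protein of low affinity for IGFs that is abundant in vessels and smooth muscle, had log2 levels of 12.46 and 12.94 in the Rbpj-cKO RNAs, against 12.66 and 12.77 in the control RNAs. Its ratio was -0.20 on array 1 and 0.16 on array 2 (mean -0.017 ± 0.26, limma adjusted p = 0.970). Its SD between the arrays was the largest of the 9 genes. In all, 6 of the 9 had opposite signs on the arrays (38.5% of all genes), 4 of them with both ratios beyond the spots' SD (18% of all genes), 2 were higher on both (31.7% of all genes) and 1 was lower on both (29.8%). The median size of a member's ratio was 0.13 on array 1 and 0.18 on array 2, where that of all genes was 0.12 and 0.086. Levels of different probes are not comparable, so no order of abundance among the genes is given.

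Markers of cell types had unequal levels in the same RNAs, and 0 of the smooth muscle, pericyte, endothelial and fibroblast markers passed the adjusted threshold in limma. Of all genes tested, 31.7% were higher and 29.8% lower on both arrays. Of the 8 smooth muscle markers 5 were lower on both arrays, with medians of -0.086 on array 1 and -0.35 on array 2 and summed log2 levels of 19.29 to 19.45 in Rbpj-cKO and 19.47 to 19.67 in control RNAs. Of the 7 pericyte markers 6 were lower on both arrays, with medians of -0.43 and -0.39, and of the 8 endothelial markers 6 were, with medians of -0.22 and -0.10. Of the 8 fibroblast markers 6 were higher on both arrays, with medians of 0.24 and 0.18 and summed log2 levels of 19.28 to 19.29 in Rbpj-cKO and 18.99 to 19.08 in control RNAs. The part of these cell types in the ratios of Igfbp5 and Igfbp2 was not tested. Igf1 and Igfbp2, which the liver also makes, had 0.26 and 0.23 on array 2, where the 10 hepatocyte markers had a median of -2.56. The part of hepatocyte RNA in these ratios was not tested.

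The remaining ligand, receptor, binding protein and protease genes included larger ratios than the 9. Of 14 such genes 12 were tested, with 3 higher on both arrays (31.7% of all genes) and 5 lower on both (29.8%). The adjusted threshold was passed by 0 of them. Their median of the mean ratios was -0.12 (all genes -0.00020), with -0.11 for array 1 and -0.0088 for array 2. Igf2, the fetal ligand, had log2 levels of 10.82 and 10.40 in Rbpj-cKO RNAs, against 11.27 and 11.00 in control RNAs. Its ratio was -0.45 on array 1 and -0.60 on array 2 (mean -0.52 ± 0.11, limma adjusted p = 0.158). The groups did not overlap, but the share of all genes so separated was not counted.

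Pappa, the protease that cuts Igfbp4, had log2 levels of 12.33 and 12.27 in Rbpj-cKO RNAs, against 11.83 and 11.73 in control RNAs. Its ratio was 0.50 on array 1 and 0.54 on array 2 (mean 0.52 ± 0.031, limma adjusted p = 0.144), so the pairs nearly coincided. Stc1, a stanniocalcin that inhibits Pappa, had ratios of -0.53 and -0.35 (mean -0.44 ± 0.13, adjusted p = 0.193), with log2 levels of 11.66 and 11.88 in Rbpj-cKO RNAs and 12.19 and 12.23 in control RNAs. For Pappa both Rbpj-cKO levels lay above both control levels, and for Stc1 both lay below. Here too, the share of all genes so separated was not counted. Insrr, an insulin receptor relative that does not bind IGFs, was dim and had 0.46 and 0.59 (mean 0.53 ± 0.090, adjusted p = 0.149). Of the 8 kidney epithelium markers tested, 7 were higher on both arrays (31.7% of all genes), with medians of 1.00 and 0.28. Their summed log2 levels were 11.84 and 11.54 in Rbpj-cKO RNAs, against 11.14 and 11.04 in control RNAs. Of the 6 mesothelium markers 4 were higher on both and 2 had opposite signs, with medians of 0.65 and 0.12. Gpm6a had 1.29 and 0.74, and Lrrn4 had 0.99 and 0.79. Msln, 1 of the 2 with opposite signs, had 1.00 on array 1 and -0.30 on array 2. The summed levels were 16.91 and 16.84 in Rbpj-cKO RNAs, against 16.73 and 16.88 in control RNAs. Most of that sum was Krt19, at 16.39 to 16.55, so it says little of the other markers. None of these markers passed the adjusted threshold in limma (0 of both lists), and their part in the ratios of Pappa and Insrr was not tested.

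Igfbp1, a binding protein made by liver, followed neither pattern. Its log2 level was 8.57 and 8.12 in Rbpj-cKO RNAs, against 7.75 and 10.89 in control RNAs, and its ratio was 0.82 on array 1 and -2.77 on array 2. The hepatocyte markers had medians of 0.53 and -2.56 in the same RNAs, and their part in the Igfbp1 values was not tested. Pappa2, a related protease, had -0.031 and -0.42. Igfals and Igfbpl1 were not well above background.

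**Figure D4:**
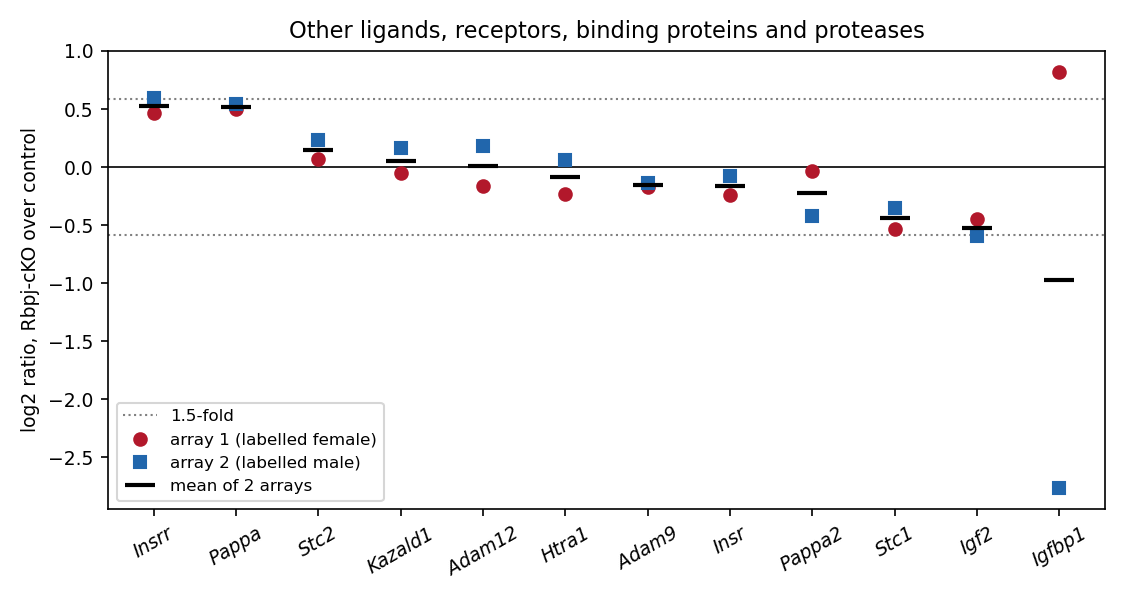
Log2 ratios of Rbpj-cKO over control of 12 further IGF ligands, receptors, binding proteins and proteases on each array, ordered by their mean (black ticks). Insrr and Pappa lie near 0.5 on both arrays, Stc1 and Igf2 lie below 0 on both, and Igfbp1 has 0.82 on array 1 and -2.77 on array 2.

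Downstream of the receptor, 30 of 30 genes were tested, with 6 higher on both arrays (31.7% of all genes) and 11 lower on both (29.8%). Past the adjusted threshold were 0. The list's median of the mean ratios was -0.042, with -0.096 for array 1 and 0.0065 for array 2. Sh2b2, an adaptor of the insulin receptor, had the lowest ratios, -1.61 on array 1 and -0.63 on array 2 (mean -1.12 ± 0.69, limma adjusted p = 0.224), and was the list's only gene at least 1.5-fold lower on both. Irs4, a receptor substrate, was dim, with log2 levels of 7.26 and 7.64 in Rbpj-cKO RNAs, against 8.72 and 7.95 in control RNAs. Its ratios were -1.46 and -0.30, although a second probe gave -0.11 and -0.081. Akt2, the Akt kinase that serves insulin action in fat and muscle, had -0.63 and -0.16 (adjusted p = 0.330). Grb14, an adaptor that binds the insulin receptor and inhibits it, had -0.48 and -0.14 (adjusted p = 0.336).

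The adipocyte markers, 10 of 10 lower on both arrays (29.8% of all genes), had list medians of -2.74 for array 1 and -1.09 for array 2. By their brightest probes, all 11 receptor signalling genes lower on both arrays were lower on array 1 than on array 2. The same held for Stat5a and for Igfbp5. The share of all genes with this order was not counted. On array 1 alone, 783 of all genes tested were at least 1.5-fold lower, against 292 on array 2 alone. The part of adipocytes in these ratios was not tested. In the other direction Socs2, an inhibitor of growth hormone signalling, had 0.45 and 0.23 (adjusted p = 0.263), with 4 probes between 0.29 and 0.46. Irs1, the main substrate of the receptor in many tissues, had -0.24 and -0.19 (adjusted p = 0.333), and its second probe had -0.24 and 0.0020. The growth hormone receptor Ghr had 0.25 and 0.35 (adjusted p = 0.256), but its second probe had -0.091 and 0.11. Of the Stat5 genes of the growth hormone list, Stat5a had -1.21 and -0.32 (adjusted p = 0.295). Stat5b had -0.11 and 0.019 (adjusted p = 0.86), and its second probe had -0.11 and -0.10. Cish had -0.22 and -0.097 (limma adjusted p = 0.467), and Jak2 had 0.084 and 0.068 (limma adjusted p = 0.724). Of the 5 genes of the growth hormone list, both arrays had 2 higher (31.7% of all genes) and 2 lower (29.8%), and 0 passed the adjusted threshold.

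**Figure D5:**
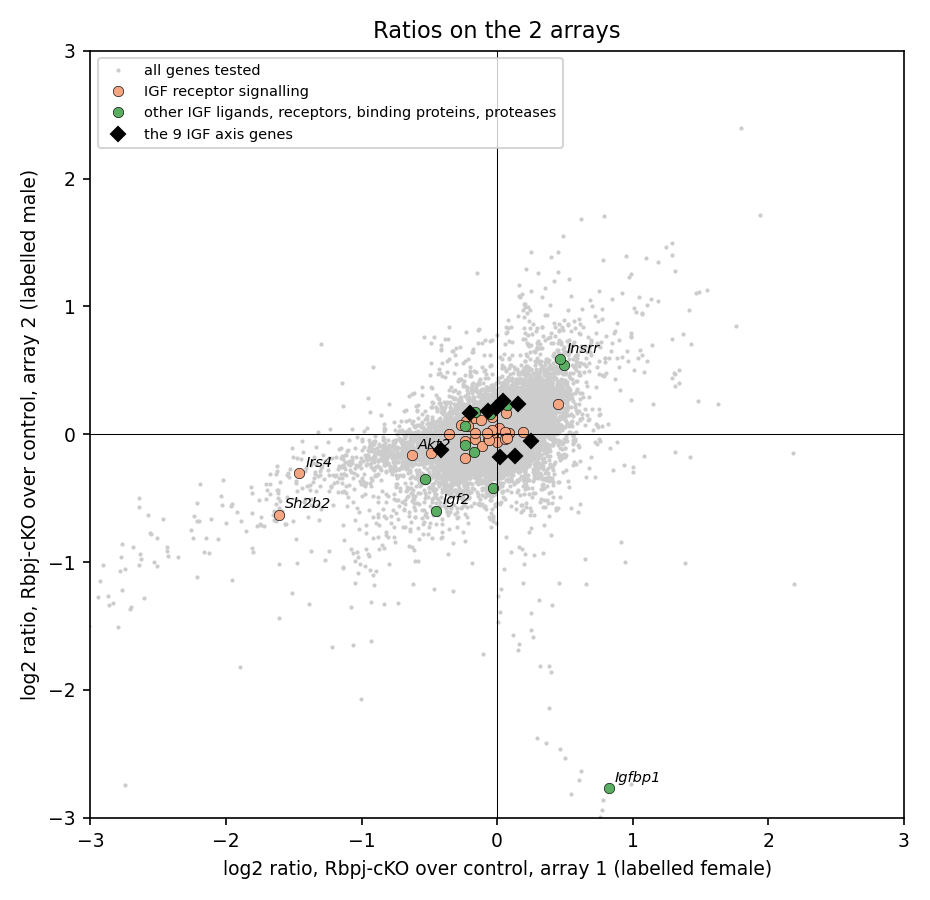
Log2 ratios of Rbpj-cKO over control on array 1 (horizontal axis) and array 2 (vertical axis) for all genes tested, with the 9 IGF axis genes as diamonds. The diamonds lie in the central cloud, while Sh2b2, Irs4 and Igfbp1 lie outside it, and 28 genes fall beyond the axis limits of 3.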

How the data were processed

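The deposited spot values are fluorescence intensities from Agilent Feature Extraction 10.7.3.1, per the submitters' processing notes. The log ratio the authors deposited is on a log10 scale, red over green. The authors' deposited series table holds a score of unstated making, read here as a signed fold change. It was used as an alternative. Both arrays shared 1 slide, per the file headers.

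Mean signals were corrected with normexp (offset 50) on the local background and normalized by loess within arrays, with control spots at weight 0 and outlier-flagged spots (3.56% and 3.41%) dropped. None was saturated. The channel labels set the direction, Rbpj-cKO over control, and the 4 spots of a probe averaged. A probe was kept if over 50% of spots cleared the background on both arrays in at least 1 genotype (28176 probes). The brightest probe stood for a gene, with names updated through RefSeq accessions (GRCm38.p6, 28328 probes matched). Levels of single RNAs were scaled between arrays with Aquantile. Ratios were tested against 0 with limma 3.58.1 (R 4.3.3), with Benjamini-Hochberg adjustment over all 21143 genes, and the fit was tested on simulated data. The number of arrays limits the precision.

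The 9 genes and the other lists were chosen with earlier results of these data known. The text names the 9 genes with every probe, Rbpj, up to 6 genes of each other IGF list by size of the mean ratio, and markers only where at least 1.5-fold changed. Ddx3y, Eif2s3y, Tbx18 and Krt19 were named after their values were seen. Alternatives varied the background correction, the normalization, the scaling between arrays, the filter on dim probes, the probe standing for a gene, the variance prior, the pairing and the source of the values, and left out each array.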

Additional observations from a re-analysis of the deposited data

Results flagged for a closer look

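For 4 of the 9 genes the pair labelled female (array 1) and the pair labelled male (array 2) had ratios of opposite sign, each beyond the SD between the spots of the probe, as did 18% of all genes tested. That SD is technical and holds no spread between animals. Igf1r had 0.25 on array 1 and -0.052 on array 2, and Igfbp6 had 0.13 and -0.17. Igfbp4 ran the other way, with -0.067 on array 1 and 0.18 on array 2, as did Igfbp7, with -0.20 and 0.16. These differences between the arrays were not tested. Dye orientation and replicate changed with the labelled sex and cannot be told apart from it, and the Y-linked values of array 1 go against its label.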

How the results depend on the processing

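Under 10 alternatives with both arrays, 0 of the 9 genes passed the adjusted threshold and 0 were at least 1.5-fold changed on both arrays. Igfbp5 stayed between -0.30 and -0.26 and Igfbp2 between 0.16 and 0.23. The means of Igfbp6 and Igfbp7 turned positive when taken from the scanner's log ratio (0.0014 and 0.012) and from the series table (0.014 and 0.016). The number of members higher on both arrays was 1 with the mean of all probes of a gene and 4 with the series table. Over all genes, limma called 1 gene. It called 0 with median centring, the scanner's log ratio, the series table, scaling between arrays and the 4 channels in a 2-group fit with no replicate block, and 95 with trend and robust settings. Of all genes, 85 were at least 1.5-fold higher and 168 lower on both arrays, where the scanner's log ratio gave 245 and 265, and 154 were higher in the series table. The causes were not tested. With 1 array left, limma could not be run, 202 to 258 genes were higher and 292 to 783 lower by size, and 5 to 5 members were above and 4 to 4 below 0, counts that need only 1 array to pass. For the 6 members with opposite signs, the sign is that of the array left.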

Other observations

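The mRNA-binding proteins named for Igf2 were measured on 3 of 3 genes, of which 2 were higher on both arrays (31.7% of all genes). Igf2bp3 had 0.22 on array 1 and 0.25 on array 2 (mean 0.24 ± 0.019, limma adjusted p = 0.303), and Igf2bp2 had 0.16 and 0.049 (adjusted p = 0.630). Igf2bp1 had 0.10 and -0.041 (adjusted p = 0.913). None of the 3 passed the adjusted threshold in limma (0 genes). An unadjusted limma p under 0.05 was found for 1, Igf2bp3 (0.0276), where 6.98% of all genes were higher at that level. Igf2 itself, as above, had -0.45 and -0.60.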
